A study of Mus musculus with 2 samples.

Results

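Cxcl9-positive capillary endothelial cells of the aortic arch were selected on measured counts, as barcodes that passed the study's filter, carried at least 1 UMI (a counted RNA molecule) of both Pecam1 and Cdh5 and at least 1 UMI of Cxcl9, and lacked the counts that mark other cells. The limits were fewer than 5 UMIs of Vwf and Vcam1 together, no Ptprc UMI, less than 0.2% of UMIs from C1qa, C1qb and C1qc, and at most 2 of the 6 arteriolar genes Stc1, Igfbp3, Hey1, Sema3g, Eps8l2 and Slc26a10 detected. This gave 1114 of 8155 cells, 897 of 5416 in the control library (ND) and 217 of 2739 in the high-fat, high-cholesterol diet library (HFD). All mice were male Apoe−/− animals on C57BL/6, which lack the apolipoprotein that clears remnant lipoproteins and so carry raised plasma cholesterol on either diet. ND mice ate chow, HFD mice ate the high-fat, high-cholesterol food from weaning, and both groups were sampled at 16 weeks of age. Each library pooled the dissociated arches of 2 aortas, so there was 1 library per diet and no replicate. Differences between diets were therefore not tested, and diet cannot be told apart from the pool of mice or the library.

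Capillary endothelial cells line the smallest vessels. They bind lipoprotein lipase through Gpihbp1 and take up fatty acids through Cd36. Interferon gamma, made mainly by activated T cells and natural killer cells, acts through Jak kinases and the interferon regulatory factors, and endothelial cells answer it with the chemokines Cxcl9 and Cxcl10, which attract cells with the receptor Cxcr3, with immunity-related GTPases of the Gbp and Irg families and with MHC class I presentation.

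The counts matched the cell numbers that the study states after filtering, 5416 and 2739. The 897 ND cells held 4992168 UMIs with a median of 4432 UMIs per cell (1110 to 29839), and the 217 HFD cells held 1514615 UMIs with a median of 6130 (1869 to 18564). The median share of mitochondrial UMIs was 15.8% and 20.1%. Between the libraries, 39 barcodes were shared, of which 1 was a kept cell in both and 0 were Cxcl9-positive cells in both. Levels below are UMIs of a gene summed over a group of cells and divided by all UMIs of that group, given per 1000000 (CPM), with exact 95% intervals in parentheses. These intervals cover counting error only, not variation between mice or libraries.

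Cxcl9 (ENSMUSG00000029417) lies on the minus strand at chr5:92321347-92328079 and Cxcl10 at chr5:92346638-92348889, beside each other (GRCm38, GENCODE M21). Promoters of these chemokines and of the GTPases Gbp2 and Gbp7 are shown because these genes are followed across the cells below. The sequences are those of RefSeq (GRCm38.p6), read on the gene's strand from 250 bases before to 50 bases after the start site. Capitals mark matches, on either strand, to the core of interferon regulatory factor sites, AANNGAAA, or to the STAT site, TTCNNNGAA.
Cxcl9, chr5:92328030-92328329, minus strand: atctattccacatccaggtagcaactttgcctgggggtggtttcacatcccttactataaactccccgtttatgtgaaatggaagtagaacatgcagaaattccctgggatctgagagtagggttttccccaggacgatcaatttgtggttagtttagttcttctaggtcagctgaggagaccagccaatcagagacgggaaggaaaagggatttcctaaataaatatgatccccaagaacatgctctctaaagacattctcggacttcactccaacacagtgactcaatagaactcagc
Cxcl10, chr5:92348840-92349139, minus strand: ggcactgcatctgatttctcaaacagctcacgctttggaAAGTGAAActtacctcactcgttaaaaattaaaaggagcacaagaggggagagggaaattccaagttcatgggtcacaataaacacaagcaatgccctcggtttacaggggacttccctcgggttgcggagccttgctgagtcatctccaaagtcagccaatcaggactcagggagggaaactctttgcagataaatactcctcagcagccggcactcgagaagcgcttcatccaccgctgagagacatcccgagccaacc
Gbp2, chr3:142620413-142620712, plus strand: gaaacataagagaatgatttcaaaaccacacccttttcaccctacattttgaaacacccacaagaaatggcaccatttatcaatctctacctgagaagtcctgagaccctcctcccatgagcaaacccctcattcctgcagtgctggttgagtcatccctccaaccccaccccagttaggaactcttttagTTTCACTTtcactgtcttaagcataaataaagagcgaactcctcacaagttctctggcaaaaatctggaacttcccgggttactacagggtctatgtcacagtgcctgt
Gbp7, chr3:142530086-142530385, plus strand: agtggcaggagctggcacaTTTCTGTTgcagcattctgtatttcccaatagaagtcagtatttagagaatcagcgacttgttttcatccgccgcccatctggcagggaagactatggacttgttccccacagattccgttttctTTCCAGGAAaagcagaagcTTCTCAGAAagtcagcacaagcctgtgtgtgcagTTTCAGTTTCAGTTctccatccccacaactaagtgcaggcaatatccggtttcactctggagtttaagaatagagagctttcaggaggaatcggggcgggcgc
Within these windows Cxcl9 held no match to either motif, Cxcl10 and Gbp2 held 1 AANNGAAA each, and Gbp7 held 3 AANNGAAA, 2 of them overlapping, and 2 TTCNNNGAA. Only these exact letters were searched, so a window without a match can still hold interferon response sites of another form. Over all 32851 promoters of the table, 23.9% held AANNGAAA and 8.30% held TTCNNNGAA. Of its 27025 genes, 26.7% and 9.55% held them in any of their promoters. The lists below are counted by gene in this way. Of the 20 interferon-inducible GTPases listed, 11 had a promoter in the table, and 11 of those held AANNGAAA and 6 held TTCNNNGAA. Of 18 MHC class I presentation genes, 16 had a promoter, of which 10 held AANNGAAA and 1 held TTCNNNGAA. Of 19 lipid handling genes, 11 had a promoter, of which 3 held AANNGAAA. Of the 15 genes that ranked highest over Cxcl9-zero cells in both libraries, 12 had a promoter, of which 4 (33.3%) held AANNGAAA and 1 (8.33%) held TTCNNNGAA, near the shares of all genes. Several GTPase genes lie in clusters of near copies, so their promoters are not independent of each other.

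Cxcl9-positive cells were a larger part of the endothelium in ND than in HFD, which the rule itself measured and which is given as a description. They were 37.3% (35.4 to 39.3) of 2405 ND cells with Pecam1 and Cdh5 UMIs and 14.997% (13.2 to 16.9) of 1447 in HFD. Of the cells that passed every other part of the rule, here called capillary-gated, they were 55.5% (53.0 to 57.9) of 1616 in ND and 23.2% (20.5 to 26.0) of 936 in HFD. Capillary-gated ND cells were shallower, with a median of 3564.5 against 5157.5 UMIs. When each cell was thinned to 1000 UMIs, which left out 4 ND cells and 0 HFD cells, a Cxcl9 UMI remained in 23.8% (21.7 to 25.9) of ND and 6.41% (4.93 to 8.17) of HFD capillary-gated cells. The summed level of Cxcl9 in capillary-gated cells was 379 CPM (366 to 393) in ND and 66.3 CPM (59.5 to 73.5) in HFD.

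Cxcl9 was found in lower shares of the other endothelial cells and in few cells of the other types. In arteriolar cells (the same gate with at least 3 of the 6 arteriolar genes), a UMI was found in 115 of 334 ND cells (34.4%) and 35 of 228 HFD cells (15.4%), at 213 and 38.3 CPM. In luminal cells (Vwf plus Vcam1 of at least 5 UMIs), the shares were 8.56% of 222 and 2.73% of 110, at 93.2 and 15.6 CPM. B cells, which do not make Cxcl9, gave 0.988% of 506 in ND at a median of 3520.5 UMIs, and 1 of 10 in HFD. T cells gave 1.94% of 309 in ND, at a median depth of 2644 UMIs, and 2.33% of 43 in HFD, at 5333 UMIs. These few cells could hold many UMIs: 1 HFD T cell held 10, and 7 HFD fibroblasts held 71 and 23 ND fibroblasts 117, which made 33.1 and 27.6 CPM of fibroblast RNA, the former above the level in HFD luminal cells. Fibroblasts gave 2.31% and 1.69%, and macrophages, which can themselves make Cxcl9, 5.57% and 3.05%. The unthinned share in capillary-gated cells was thus above the share in B cells, T cells and fibroblasts of the same library, with intervals that did not overlap except for the 10 HFD B cells.

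**Figure D1:**
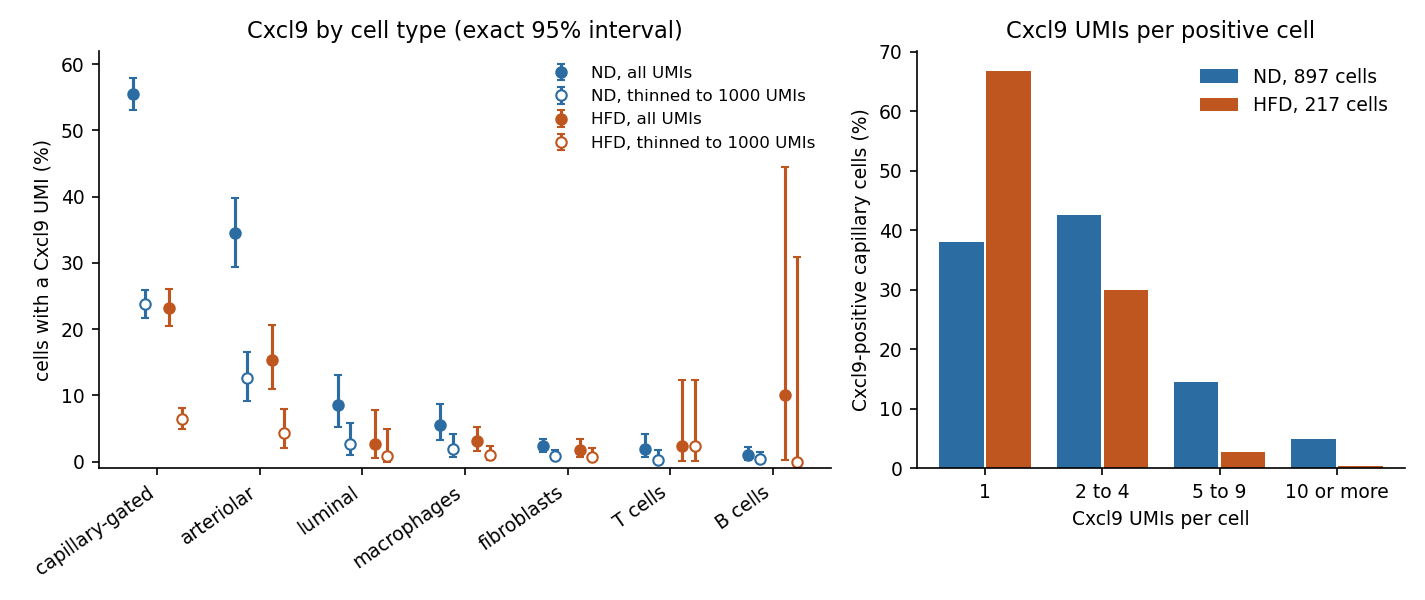
Left, percent of cells with a Cxcl9 UMI by cell type in ND (blue) and HFD (orange), from all UMIs (filled) or after thinning to 1000 UMIs (open), with exact 95% intervals. Right, percent of the 897 ND and 217 HFD Cxcl9-positive capillary cells by their number of Cxcl9 UMIs, where 38.0% of ND and 66.8% of HFD cells had 1 UMI.

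Most Cxcl9-positive cells carried few Cxcl9 UMIs, and the high counts were nearly all in ND. The median was 2 UMIs in ND and 1 in HFD, and the highest cell had 71 and 12. In ND, 341 cells had 1 UMI, 382 had 2 to 4, 130 had 5 to 9 and 44 (4.91%) had 10 or more. In HFD the same classes held 145, 65, 6 and 1 cell (0.461%). The tenth of the cells with the most Cxcl9 UMIs held 35.6% of the 2864 ND UMIs and 27.9% of the 355 HFD UMIs. Cells at a count of 1 sit just inside the rule, and a cell without a Cxcl9 UMI can differ from them by chance of sampling alone.

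The label was checked against examples of capillary markers that the rule did not use. Gpihbp1, the capillary anchor of lipoprotein lipase (chr15:75596628-75599481), had a UMI in 99.6% of ND and 100% of HFD Cxcl9-positive cells. Its level was 2545 CPM in ND and 2346 in HFD, against 123 and 94.6 CPM in luminal cells. Cd36, the fatty acid translocase, stood at 3975 and 6101 CPM against 304 and 313, and Aqp1, a water channel of microvessels, at 5444 and 3555 against 638 and 783. Arteriolar cells had similar Gpihbp1 (2131 and 2093 CPM) and Cd36 (3466 and 5489 CPM), so these markers set the Cxcl9-positive cells apart from the luminal cells and less from the arteriolar ones. Not every gene listed as a capillary marker did so. Plvap went the other way, at 17.0 and 18.5 CPM against 328 and 643 in luminal cells. Ramp3 was at 7.41 against 6.58 CPM in ND and at 54.8 against 12.7 in HFD.

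The 4 genes given beside Cxcl9 as markers of these cells, Iigp1, Pcdh17, Nrp2 and Fscn1, were chosen on these same data, and their values are a description. Iigp1, an immunity-related GTPase, was at 849.5 CPM (824 to 875) in ND and 371 (341 to 403) in HFD. In capillary-gated cells without Cxcl9, from here on Cxcl9-zero cells, which numbered 719 in each library, it was at 548 and 241 CPM. Pcdh17, a protocadherin (chr14:84443563-84539002), was at 244 and 186 CPM against 213 and 146. Nrp2, a co-receptor for vascular growth factors and semaphorins (chr1:62703285-62818695), was at 382 and 193 CPM against 269 and 167. Fscn1, which bundles actin in cell protrusions (chr5:142960343-142973185), was at 227 and 166 CPM against 152 and 124. All 4 were also present in Cxcl9-zero cells of both libraries, so none of them marked a population that Cxcl9-zero cells lacked.

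The cells at the edges of the rule were few on the luminal side and many on the arteriolar side. Within the limits that the rule set, 93.3% of ND and 93.5% of HFD cells had no Vwf or Vcam1 UMI, and 52.6% and 30.4% had none of the 6 arteriolar genes. In ND, 5 Cxcl9-positive cells with Vwf plus Vcam1 of 3 or 4 had 1999 CPM of Gpihbp1 and 0 UMIs of Cytl1, a gene of the luminal cells. The 5 ND cells at 5 or 6, just outside, had 1220.4 CPM of Gpihbp1 and 949 CPM of Cytl1, and HFD had 3 cells just inside and 0 at 5 or 6. With 2 arteriolar genes, 140 ND and 62 HFD cells were just inside, and with 3 genes 74 and 24 cells were just outside. Gpihbp1 stood at 2614 CPM in the ND cells with 2 of these genes and 2618 CPM in those with 3, and at 2296 and 2622.5 CPM in HFD, so that marker hardly differed across this edge in ND.

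Cxcl9-positive cells were then set against Cxcl9-zero cells of the same library, which differ by construction in the Cxcl9 count alone. Interferon-inducible genes were higher in Cxcl9-positive cells of both libraries, and so were lipid handling and capillary genes, in ND by about as much as the interferon gamma pathway list. Cxcl9-zero cells were shallower, with medians of 2817 UMIs in ND and 4944 in HFD, and had more mitochondrial RNA, 20.3% and 23.7%. The part of depth and mitochondrial RNA in these differences was not tested, beyond the thinned values below. Of the genes that reached 100 UMIs when both groups were added, 170 of 7010 (2.43%) were at least 1.5-fold higher in ND Cxcl9-positive cells and 310 (4.42%) at least 1.5-fold lower. In HFD the shares were 132 (2.37%) and 157 (2.81%) of 5581. In both libraries together, 12 of 5530 genes (0.217%) were at least 1.5-fold higher. At the same limit of 100 UMIs, this count ranged from 4 after thinning to 27 with at least 2 Cxcl9 UMIs required. Thinning left 224 ND and 39 HFD Cxcl9-positive cells of 1000 UMIs each, so fewer genes could reach the limit. The 4 is therefore not comparable with the 12. The median log2 ratio over all genes was 0.04 in ND and 0.07 in HFD.

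The interferon-inducible GTPases act inside cells against vacuoles of intracellular pathogens. Their summed level was 1787 CPM in Cxcl9-positive and 1319.6 in Cxcl9-zero cells of ND, a log2 ratio of 0.44 (0.38 to 0.50). In HFD it was 870.2 and 595 CPM, 0.55 (0.45 to 0.65). Of 20 genes listed, 19 were in the counts and 14 in ND and 10 in HFD passed the limit of 100 UMIs, and 4 in each library were at least 1.5-fold higher with 0 lower. In ND these were Gbp5, a guanylate-binding protein (25.8 against 12.5 CPM), Gm4951 (29.4 against 18.0), Iigp1 and Tgtp1 (16.8 against 10.9). In HFD they were Igtp (74.6 against 45.5 CPM), Iigp1, Gbp2 (65.4 against 42.9) and Gbp3 (30.4 against 20.04). Iigp1 was the common member, with log2 ratios of 0.63 (0.55 to 0.72) and 0.62 (0.47 to 0.78). Under several alternatives it was not past the fold in at least 1 library. In HFD it fell short without cells holding RNA of other types (0.36), at most 20% mitochondrial UMIs (0.53) and under a median of ratios (0.55). In ND it fell short as a mean of per-cell CPM (0.43), with Gpihbp1 required (0.53) and without lymphatic or club cell RNA (0.575). Scaling without mitochondrial, haemoglobin and ribosomal protein genes gave 0.57 in ND and 0.54 in HFD, both short of it. Thinning first gave 1.09 in HFD. Since Iigp1 was among the genes chosen on these data, the list was also summed without it, which gave 0.28 (0.20 to 0.36) in ND and 0.50 (0.37 to 0.63) in HFD. Gbp2 in ND was at 121 CPM in Cxcl9-positive and 114 in Cxcl9-zero cells, with an interval of the log2 ratio of -0.12 to 0.29.

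Genes of the interferon gamma pathway itself were higher by a similar amount, 0.36 (0.31 to 0.42) in ND and 0.31 (0.24 to 0.38) in HFD for the summed list. The transcription factor Irf1 was at 312 against 236 CPM in ND and 336 against 249 in HFD. Irf8, another factor of the family, was at 262 against 175 and 184 against 127 CPM. Socs1, the feedback inhibitor of the Jak kinases, was at 125 against 82.5 CPM in ND (log2 ratio 0.60, 0.37 to 0.83) and 112 against 82.5 in HFD (0.44, 0.17 to 0.72), and was the 1 gene of 12 past the fold in ND. The receptor chain Ifngr1 was at 214 against 164 CPM in ND and at 129 against 143 in HFD.

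Antigen presentation differed by class. The MHC class I list, which covers the heavy chains, B2m, the peptide transporter and the immunoproteasome, was higher by a log2 ratio of 0.17 (0.15 to 0.19) in ND and 0.19 (0.16 to 0.23) in HFD, with 0 of 18 and 0 of 17 genes past the fold. H2-K1 was at 2477 against 2232 CPM in ND and 1297 against 1149.9 in HFD, and H2-Q4 at 459.9 against 353 and 278 against 201. The class II list was lower, by -0.60 (-0.74 to -0.45) and -0.25 (-0.45 to -0.05), and Cd74, the class II invariant chain, was at 79.9 against 124 CPM and 54.8 against 92.1. Luminal cells held 2212 and 540.4 CPM of Cd74. The list of type I interferon-induced genes was higher by 0.23 (0.17 to 0.28) in ND, with 4 of 17 genes past the fold and 0 lower, and by 0.37 (0.29 to 0.45) in HFD, with 4 of 14 higher and 1 lower. Ifit1, which binds foreign RNA, was at 132 against 73.9 CPM in ND and 109.6 against 45.3 in HFD, and Isg15, a ubiquitin-like modifier, at 178 against 120.4 and 104 against 59.3. The lower gene was Ifi27l2a, at 66.0 against 111 CPM in HFD and 170.3 against 218 in ND.

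Among chemokines, Cxcl10, the other ligand of Cxcr3 measured here, was higher in Cxcl9-positive cells of both libraries. It was at 69.3 CPM (62.2 to 77.0) against 25.8 (19.95 to 32.8) in ND, a log2 ratio of 1.43 (1.04 to 1.83). In HFD it was at 28.4 (20.5 to 38.2) against 6.25 (4.001 to 9.29), 2.18 (1.43 to 2.97), from 43 and 24 UMIs and so below the limit of 100. A Cxcl10 UMI was found in 119 of 897 ND and 22 of 217 HFD Cxcl9-positive cells, and 10 cells held 34.97% and 72.1% of its UMIs. Cxcl12, a homeostatic chemokine, went the other way in ND, at 389 against 617 CPM, and stood at 877 against 946 in HFD. The chemokine list as a sum was lower, by -1.13 in ND and -0.16 in HFD, with medians of -0.34 and -0.06. In ND this sum turned on Ccl21a, a lymphatic chemokine at 25.8 against 766 CPM, and 95.3% of its UMIs in Cxcl9-positive cells came from 1 cell. The lymphatic marker list was at 105 CPM in Cxcl9-positive and 1298 CPM in Cxcl9-zero ND cells, with 80.6% of the latter in 10 cells. Cd274, the ligand PD-L1 that restrains T cells, was at 66.1 against 52.0 CPM in ND and 46.2 against 26.0 in HFD. The list of ligands that regulate T cells, to which it belongs, had a ratio of -0.08 (-0.20 to 0.03) in ND with 0 of 6 genes past the fold, and of 0.32 (0.17 to 0.48) in HFD with 2 of 4 higher, Cd274 and Tnfsf10.

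Endothelial programmes differed as well. Lipid handling genes were higher by 0.38 (0.37 to 0.40) in ND and 0.22 (0.21 to 0.23) in HFD with 0 of 14 past the fold in either library. Lpl, the lipase that Gpihbp1 carries, was at 794 against 614 CPM and 1519.9 against 1188. Fabp4, a fatty acid binding protein, was far higher in level and so weighed more in the sum. It was at 22393 CPM in ND and 32538 in HFD Cxcl9-zero cells, and the list without it was not summed. The capillary list was higher by 0.35 (0.34 to 0.37) and 0.22 (0.20 to 0.24). Within it Aqp1 was higher, at 5444 against 3223 CPM in ND and 3555 against 2620.0 in HFD, and 2 genes were lower in ND. These were Rbp7, a retinol-binding protein, at 473 against 724 CPM, and Plvap, the diaphragm protein of fenestrated and venous capillaries, at 17.0 against 174. In HFD Plvap was at 18.5 against 55.9 CPM. Of 24 angiogenesis and tip cell genes tested in ND, Apln, a tip cell ligand, was past the fold (34.1 against 19.5 CPM), and Flt4 and Unc5b were lower (56.7 against 102 and 44.1 against 76.2). In HFD 0 of 22 were past it. The leukocyte adhesion list had ratios of 0.11 and 0.04, and its best known member Icam1 was at 217 against 183 and 239.7 against 182 CPM. Cytoskeleton genes were at 0.25 and 0.06, NF-kappaB targets at 0.15 and 0.16, immediate early and heat shock genes at 0.14 and 0.09 and cell cycle genes at 0.15 and 0.10.

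**Figure D2:**
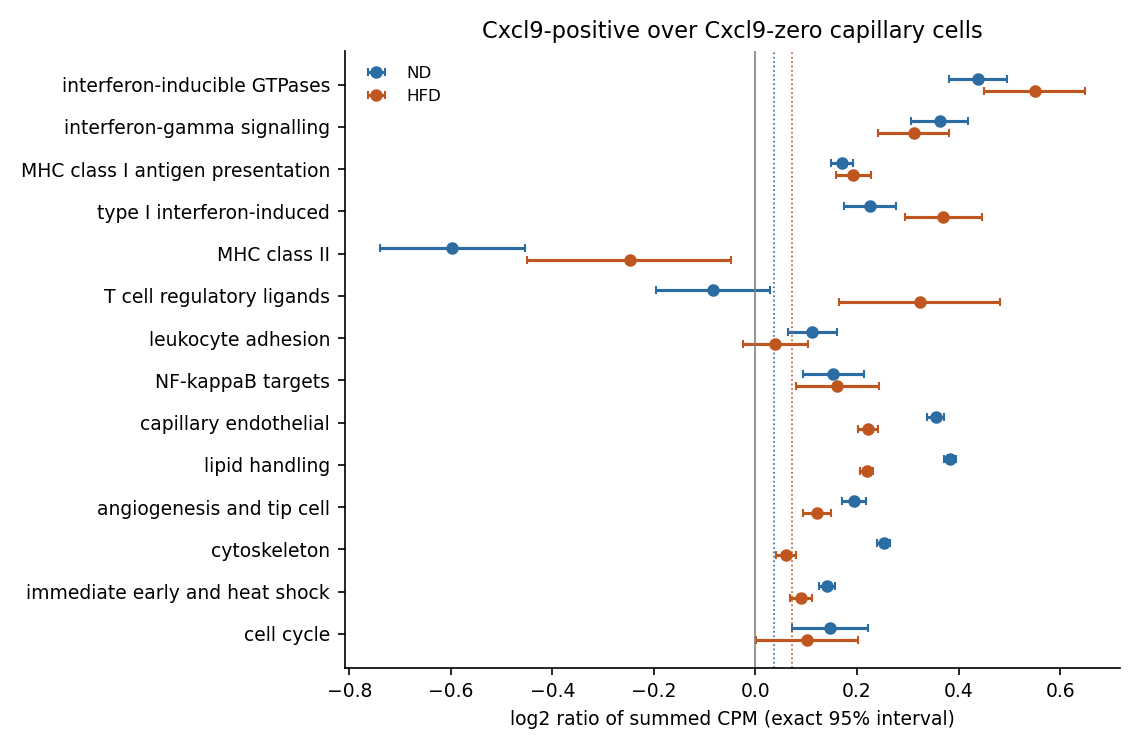
Log2 ratio of the summed CPM of 14 gene lists in Cxcl9-positive over Cxcl9-zero capillary cells in ND (blue) and HFD (orange), with exact 95% intervals, the median over all genes as dotted lines and 0 as a grey line. Interferon-inducible GTPases lie at 0.44 and 0.55 (0.28 and 0.50 without Iigp1), lipid handling at 0.38 and 0.22, and MHC class II left of 0, at -0.60 and -0.25.

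The genes that ranked highest in both libraries were mostly low in level, and their number changed with the processing as given above. Among the 12 genes past the fold in both were Pbld1, Olfr889, Ifit1, Rtp3, Rgs2, Parp14, Pdzd2, Iigp1, Spats2, Gpd2 and Hopx, followed by Kctd5, 9930111J21Rik2 and Isg15. Ifit1, Parp14, Iigp1 and Isg15 belong to the interferon lists above. Rgs2, which dampens G protein signals, was at 101 against 61.0 CPM in ND and 93.8 against 58.5 in HFD, and Pdzd2 at 221 against 143 and 175 against 111. Hopx, a homeodomain cofactor, was at 56.3 against 28.1 and 33.7 against 22.4 CPM. Pbld1 (32.7 against 13.7 and 44.9 against 14.1 CPM) and Olfr889 (24.2 against 12.5 and 42.3 against 19.8) rested on few cells: 1 HFD cell held 32.4% of the Pbld1 and 48.4% of the Olfr889 UMIs. Among the lowest in both libraries were Cytl1, Cp, Fn1, Apod, Sfrp1, Fbln5, Fndc1, Plvap and Clu. Cytl1 was at 2.80 against 86.8 CPM in ND and 1.98 against 29.1 in HFD, and at 5122 and 3095 CPM in luminal cells. Fn1, Sfrp1, Fbln5 and Clu were likewise genes of the luminal cells, where the lowest value among them was 846 CPM, for Fbln5 in ND. The part of such luminal RNA in the Cxcl9-zero cells was not tested.

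Levels were also set against the number of Cxcl9 UMIs in a cell. In ND the GTPase sum was 1319.6 CPM at 0 Cxcl9 UMIs, 1650.2 at 1, 1627 at 2 to 4, 1914 at 5 to 9 and 2517 (2382 to 2658) at 10 or more. In HFD it was 595, 776, 985 and 1513 (1152 to 1952) over the first 4 classes, the last with 6 cells. Cxcl10 went from 25.8 and 29.7 CPM at 0 and 1 to 42.5, 84.0 and 250.3 (209 to 297) in ND, and from 6.25 and 13.7 to 44.1 and 103 in HFD. Iigp1 was at 548, 784, 785, 889 and 1197 CPM in ND and at 241, 338, 412 and 589.9 in HFD. The MHC class I sum went from 9615 to 11439 CPM in ND and from 5718 to 7745 in HFD over the same classes. Cd74 of class II was not lower in every positive class of ND, at 124, 63.75, 125, 44.8 and 19.4 CPM. In HFD it was at 92.1, 78.1, 17.2 and 0 CPM over the first 4 classes. In ND this order was not limited to interferon-inducible genes. The cytoskeleton list went from 26794 CPM at 0 to 34614 at 10 or more, and NF-kappaB targets from 1284 to 1688, each higher in every next class, while in HFD the cytoskeleton list was at 17788, 18891, 18157 and 15926 CPM over the first 4 classes and NF-kappaB targets at 1036, 1104, 1253 and 1334. Fat cell genes went from 211 to 1401 CPM in ND, but they rested on few cells. Of their 2580 UMIs in all ND Cxcl9-positive cells, 1 cell held 700, and 10 cells held 86.4%. Gpihbp1 had another pattern: it was lowest at 0 UMIs in ND (1972 CPM), between 2377 and 2613 in the 4 positive classes, and between 2160.2 and 2407 in the first 4 classes of HFD.

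Cells with more Cxcl9 UMIs were deeper, from a median of 3279 UMIs at 1 to 9932 at 10 or more in ND, and had less mitochondrial RNA, from 18.8% to 9.99%. With Cxcl9 counted after thinning to 1000 UMIs, median depths lay close together, at 3496, 3720.5 and 3942 UMIs for 0, 1 and 2 or more in ND and 5106, 5698.5 and 5833 in HFD. The GTPase sum was then 1519.7, 1919.9 and 2037 CPM in ND and 649.5, 923 and 1419 in HFD, and Cxcl10 was at 35.5, 81.5 and 196.5 CPM and at 9.67, 36.0 and 189 (69.4 to 412). The last HFD class again had 6 cells. The order from 0 to 2 or more was thus as in the unthinned counts for both readouts. The ND cytoskeleton list was at 29368, 32515 and 32676 CPM, and ND fat cell genes at 470.5, 307 and 65.5, the reverse of their unthinned order.

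**Figure D3:**
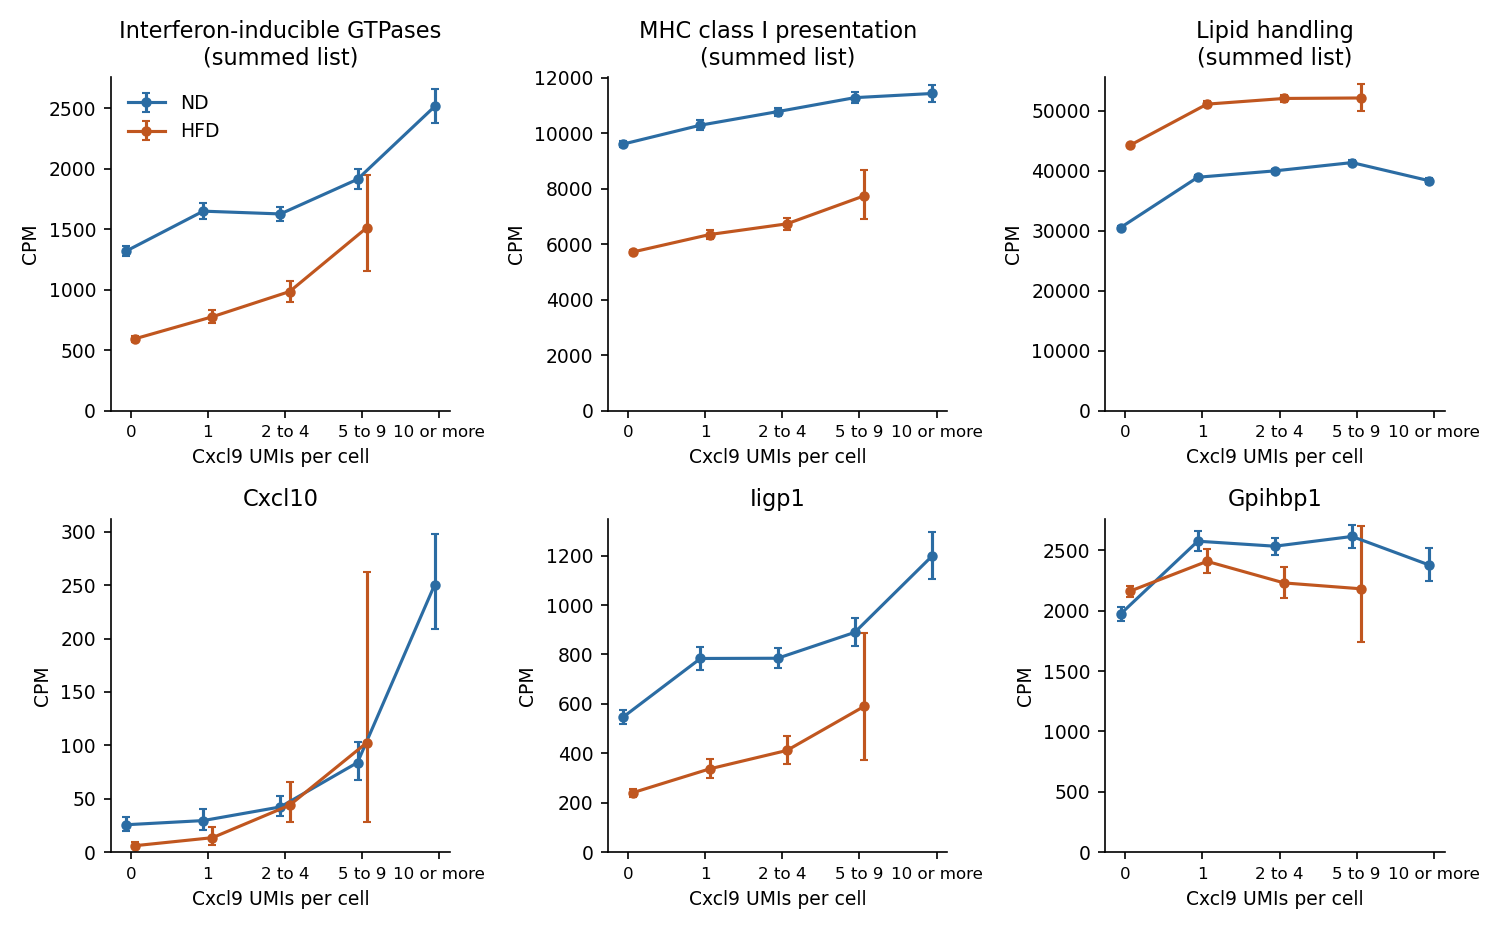
Summed CPM of 3 gene lists and CPM of 3 genes in capillary-gated cells by their number of Cxcl9 UMIs, in ND (blue) and HFD (orange), with exact 95% intervals; the single HFD cell with 10 or more is not drawn. The GTPase sum and Cxcl10 are highest at the right end, at 2517 and 250.3 CPM in ND, and Gpihbp1 shows no such order.

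The diets were then compared within Cxcl9-positive cells, from 897 ND and 217 HFD cells. HFD cells held less of the interferon-inducible GTPases and of MHC class I, and more of several lipid handling genes, and Cxcl9-zero cells of the same libraries gave ratios of the same sign. Of 6435 genes that reached 100 UMIs when the 2 libraries were added, 324 (5.03%) were at least 1.5-fold higher and 917 (14.3%) at least 1.5-fold lower in HFD. This split changed with scaling, to 492 higher and 638 lower under a median of ratios, and the median log2 ratio over all genes was -0.13 in Cxcl9-positive and -0.15 in Cxcl9-zero cells. Ratios below are unscaled and are to be read against that shift. Haemoglobin and Alas2 transcripts, red cell RNA, were at 34083 CPM in HFD and 6046 in ND Cxcl9-positive cells, and 34 of 217 and 17 of 897 cells held at least 1% of their UMIs from this list. Without those cells the list was at 516 and 133 CPM, and the GTPase ratio below was -1.004 in place of -1.04.

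The GTPase list was lower in HFD by -1.04 (-1.12 to -0.95) in Cxcl9-positive cells, with 12 of 13 genes past the fold and Irgm2 the exception at 25.1 against 28.8 CPM. In Cxcl9-zero cells the ratio was -1.15 (-1.23 to -1.07), in luminal cells -1.04 (-1.16 to -0.92) and in arteriolar cells -0.98 (-1.08 to -0.88). Without Iigp1 it was -0.91 (-1.02 to -0.80). Iigp1 was at 371 CPM in HFD and 849.5 in ND (log2 ratio -1.20, -1.32 to -1.07), Gbp7 at 89.8 and 184, and Gbp2 at 65.4 and 121. Cxcl10 was at 28.4 and 69.3 CPM. Cxcl9 itself was at 234 and 574 CPM in cells chosen for having it. The lower GTPase level in HFD was thus seen in capillary cells with and without Cxcl9 and in luminal and arteriolar cells alike.

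MHC class I presentation was lower by -0.73 (-0.76 to -0.70), with 14 of 18 genes past the fold, and by -0.75 in Cxcl9-zero cells. H2-K1 was at 1297 CPM in HFD and 2477 in ND, B2m at 2205 and 3265, and the immunoproteasome subunit Psmb9 at 41.6 and 117. Type I interferon-induced genes were lower by -0.57 (-0.63 to -0.50), with 7 of 18 lower past the fold and 1, Oasl1, higher. The interferon gamma pathway list was at -0.15 (-0.22 to -0.09), close to the shift over all genes. Within it Irf1 was at 336 and 312 CPM and Socs3, a feedback inhibitor of cytokine signals, at 393 and 303, while Ifngr1 was at 129 and 214.

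Ifng, the gene of interferon gamma, had no UMI in Cxcl9-positive cells of either library, which allows up to 0.739 CPM in ND and 2.44 in HFD. Over all kept cells it had 77 UMIs in 42 cells in ND and 11 UMIs in 7 cells in HFD. T cells held 61 of the ND UMIs, in 30 of 309 cells, and 3 of the HFD UMIs, in 2 of 43 cells. That was 61.1 CPM (46.8 to 78.5) of T cell RNA in ND and 10.7 (2.21 to 31.2) in HFD. Cxcr3, the receptor of Cxcl9 and Cxcl10, had 86 UMIs over all kept ND cells, 47 of them in T cells and 1 in Cxcl9-positive cells, and 29 UMIs in HFD, 4 of them in T cells. The part of these cells in the levels of Cxcl9 was not tested.

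Lipid handling genes were higher in HFD as a sum, by 0.37 (0.36 to 0.38), with 4 of 14 genes higher and 1 lower past the fold. Lpl was at 1519.9 CPM in HFD and 794 in ND, Cd36 at 6101 and 3975, the monoglyceride lipase Mgll at 1707 and 993, and Angptl4, an inhibitor of lipoprotein lipase, at 312 and 179. The lower gene was Scarb1, the HDL receptor, at 221 and 344 CPM. Gpihbp1 was at 2346 and 2545 CPM. In Cxcl9-zero cells the list ratio was 0.54 (0.52 to 0.55). A sum weighs genes by their level, and Fabp4 stood far above the genes named here. In Cxcl9-zero cells it was at 32538 CPM in HFD and 22393 in ND. In Cxcl9-positive cells grouped by Cxcl9 count it was between 37396 and 38468 CPM in HFD and between 28032 and 30791 in ND. The list without Fabp4 was not summed. The capillary list was at 0.10 (0.08 to 0.12), with 5 of 15 genes higher and 2 lower. Of these, Cd300lg was at 1124 CPM in HFD and 688 in ND, the carbonic anhydrase Car4 at 565 and 333 and Rbp7 at 916 and 473, while Aqp1 was at 3555 and 5444 and the matrix protein Sparcl1 at 409 and 947.

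Cytoskeleton genes were lower in HFD by -0.78 as a sum, a value set by actin and the thymosins, since the median of the 16 genes tested was -0.17. Tmsb4x, which binds free actin, was at 8147 CPM in HFD and 15389 in ND, and Actb at 4101 and 7664, while the tubulin Tuba1a was at 389 and 196. The angiogenesis and tip cell list had a sum of 0.15 and a median of -0.40, opposite in sign, with 1 gene higher and 7 lower of 23. Nrp2 was at 193 CPM in HFD and 382 in ND, Aplnr, the apelin receptor, at 25.7 and 64.5, and Plaur, the urokinase receptor, at 153 and 68.5. Chemokines likewise gave a sum of 0.40 and a median of -0.95: Cxcl12 was at 877 CPM in HFD and 389 in ND, while Cxcl1 was at 50.8 and 112, Cxcl2 at 24.4 and 46.5 and the scavenging receptor Ackr3 at 68.0 and 131. MHC class II genes were at -0.04 (-0.24 to 0.16), ligands that regulate T cells at -0.19, NF-kappaB targets at -0.30, leukocyte adhesion genes at -0.22, immediate early and heat shock genes at -0.34 and cell cycle genes at -0.29.

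**Figure D4:**
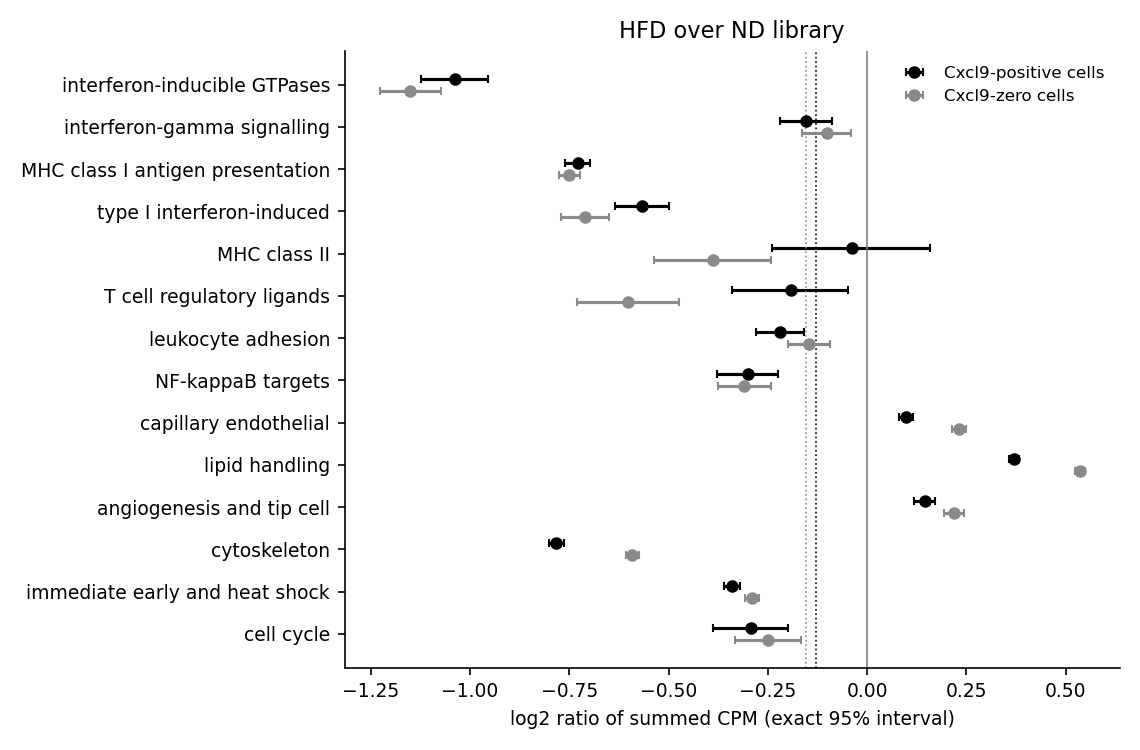
Log2 ratio of the summed CPM of 14 gene lists, HFD over ND, in Cxcl9-positive (black) and Cxcl9-zero (grey) capillary cells, with exact 95% intervals and the median over all genes as dotted lines. Interferon-inducible GTPases lie farthest to the left, at -1.04 and -1.15, and lipid handling lies right of 0, at 0.37 and 0.54.

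Among the 10 genes highest in HFD over ND, Slc6a6, the taurine transporter (chr6:91684053-91759066), came after Spp1. It was at 1124 CPM (1071 to 1178) in HFD and 62.9 (56.1 to 70.3) in ND Cxcl9-positive cells, a log2 ratio of 4.16 (3.98 to 4.34). A UMI was found in 203 of 217 HFD cells (93.5%) and 191 of 897 ND cells (21.3%), and after thinning in 62.2% and 6.24%. In Cxcl9-zero cells Slc6a6 was at 1217 and 179 CPM, a ratio of 2.76. Within ND it was thus lower in Cxcl9-positive than in Cxcl9-zero cells, by a log2 ratio of -1.51 (-1.72 to -1.30), and within HFD the ratio was -0.12 (-0.20 to -0.03). Arteriolar cells had 1509.5 and 325 CPM, and luminal cells 117 and 30.7.

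Cdkn1c, an inhibitor of cell division, was at 706 CPM in HFD and 141 in ND Cxcl9-positive cells, and Ramp3, which sets the ligand of adrenomedullin receptors, at 54.8 and 7.41. Of the other genes with the largest ratios, Hbb-bs, Hbb-bt, Hba-a1, Hba-a2 and Alas2 belong to red cells. For Spp1, 93.7% of the HFD UMIs came from 1 cell, and 7.29 CPM remained without it. At the low end, Stxbp6, which binds the secretory SNARE complex, was at 14.5 CPM in HFD and 103 in ND Cxcl9-positive cells and at 14.3 and 89.1 in Cxcl9-zero cells, with a UMI in 8.76% and 39.4% of Cxcl9-positive cells. Cpne7 was at 2.64 and 22.6 CPM and Rassf2 at 3.30 and 22.4. The neutrophil genes S100a8 and S100a9 stood at 574 and 307 CPM in ND, of which 99.3% and 98.1% came from 1 cell each. The fat cell genes Cfd and Scd1 were at 29.7 and 59.4 CPM in HFD and 403 and 594 in ND, with 31.0% and 38.9% of the ND UMIs in 1 cell. Ucp1, another fat cell gene, went the other way, with a UMI in 88 of 217 HFD cells (40.6%) and 55 of 897 ND cells (6.13%). Without the cell that held the most Ucp1 UMIs, it was at 112 CPM in HFD and 19.3 in ND. Cyp2e1 was at 2.64 and 39.5 CPM, and the fibroblast genes Dpt and Lum at 3.30 in HFD and 31.9 and 22.6 in ND.

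**Figure D5:**
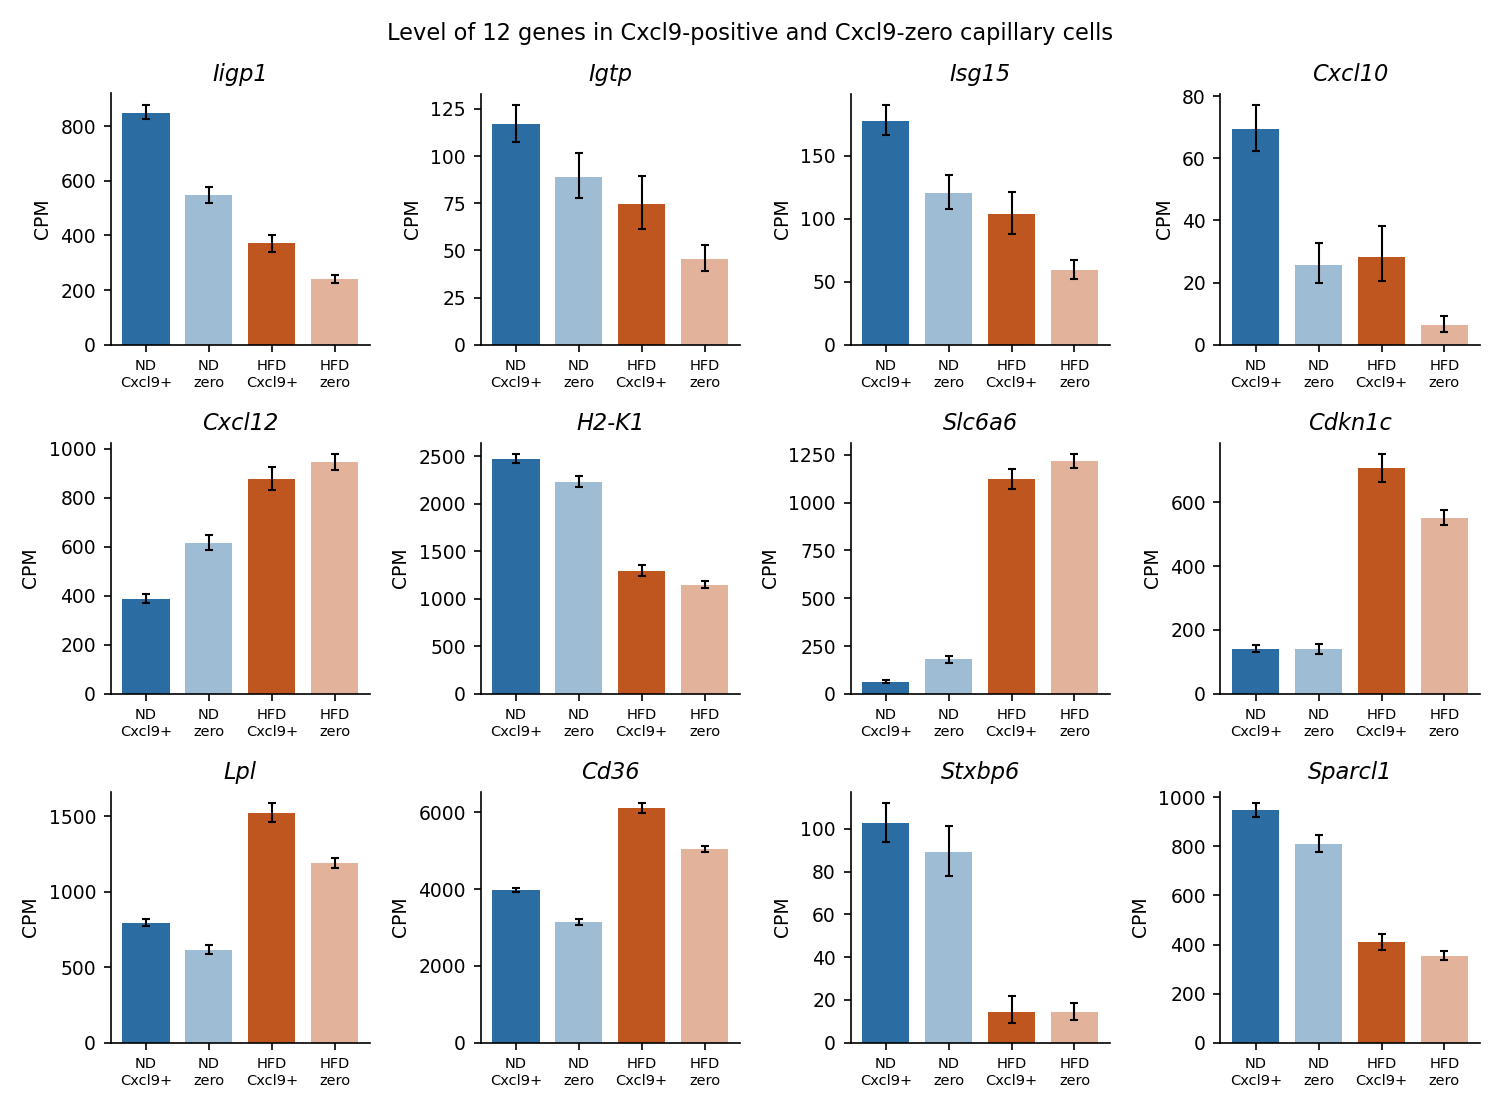
CPM of 12 genes in Cxcl9-positive (full colour) and Cxcl9-zero (pale) capillary cells of ND (blue) and HFD (orange), with exact 95% Poisson intervals as black bars. Iigp1, Igtp, Isg15, Cxcl10 and H2-K1 are lower in HFD in both kinds of cells, and Slc6a6, Cdkn1c, Lpl, Cd36 and Cxcl12 are higher in HFD in both.

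Beside the red cell RNA given above, at 6046 CPM in ND and 34083 in HFD, RNA of genes listed for other cell types was present in the Cxcl9-positive cells, and its part in the results above was not tested. The T cell list summed to 41 UMIs in ND and 42 in HFD, 8.21 and 27.7 CPM, with 29 of the HFD UMIs in 1 cell, and the natural killer cell list to 9 and 0 UMIs. Macrophage genes were at 95.3 and 145 CPM, B cell genes at 81.7 and 43.6, and dendritic cell genes at 103 and 106. The dendritic cell list was spread over 359 of 897 ND cells, and 10 cells held 7.98% of its UMIs. For the B cell list in ND, 10 cells held 62.5%. Whether the Cxcl9-positive cells made the RNA of the dendritic cell list themselves was not tested. Fibroblast genes were at 481 CPM in ND and 166 in HFD, smooth muscle and pericyte genes at 344 and 709.8, fat cell genes at 517 and 174, and cardiomyocyte genes at 24.8 and 45.6. Of the ND cells, 4 held at least 1% of their UMIs from the fat cell list, and of the HFD cells 0. Without those 4 cells the fat cell list was at 148 CPM in ND, below the 174 in HFD. Airway club cell genes, whose defining member is Scgb1a1, were at 435 CPM in ND, with UMIs in 492 of 897 cells, and at 1 UMI in HFD. In Cxcl9-zero cells the same list was at 3899 CPM in ND, where 1 cell held 9093 UMIs. Other endothelial lists were at 774 and 953 CPM (arterial), 628 and 713 (venous), 105 and 68.7 (lymphatic) and 79.9 and 131 (endocardial), and mesothelial genes at 1.60 and 9.90. Of the Cxcl9-positive cells, 3.34% in ND and 3.69% in HFD were among the highest 6% of doublet scores of their library, against 9.91% and 11.8% of luminal cells. At the default threshold these scores called 0 cells in ND and 1 in HFD. Their ranks therefore cannot show how many cells of either kind were doublets.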

How the data were processed

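Single cells of the aortic arch were measured by 10x droplet RNA sequencing, 1 library per diet. The authors deposited gene by barcode matrices of UMI counts, not normalized, whose headers name Cell Ranger 3.0.1; the submitters' processing notes name build mm10, and no annotation version is given in the sources used here. Barcodes were kept with 200 or more genes, 200 or more UMIs and no more than 30% of UMIs from mitochondrial genes, which gave the study's stated 5416 and 2739 cells. Ensembl identifiers sharing a symbol were summed, over 31017 genes.

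Cells were assigned to the groups ND and HFD by the label of their library and selected by the counts given with the results. The cell rule, its marker genes and the gene lists were chosen with earlier results of these data known. UMIs were summed per group of cells and divided by the group's total. Intervals are exact at 95% (Poisson for CPM, Clopper-Pearson for shares, conditional binomial for ratios). Cells of 1 library are not replicates, so no test was made, no p-value is given, and a gene past the fold is one at least 1.5-fold apart with at least 100 UMIs in both groups added. Named genes are the 15 highest and 10 lowest in both libraries over Cxcl9-zero cells, the 10 highest and 10 lowest in HFD over ND, the given markers, and examples from each list. Some examples, and the genes followed by Cxcl9 count or drawn, were picked after their values were seen. A few genes that the rule names are not reported here.

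Doublets were scored with Scrublet (scanpy 1.11.5), which at its default threshold called 0 cells in ND and 1 in HFD and so did not work. No cell was removed on it, and leaving out the highest 6% of scores was an alternative. Thinning drew 1000 UMIs per cell. Ratios were checked on simulated counts. Other alternatives changed the Cxcl9 and Vwf plus Vcam1 limits, the mitochondrial limit, the scaling and the filter on low counts. Python 3.11.15, numpy 2.4.6, scipy 1.17.1, pandas 2.3.3 and matplotlib 3.10.9 were used. Promoters came from the RefSeq table (GRCm38.p6) and gene positions from GENCODE M21.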

Additional observations from a re-analysis of the deposited data

Results flagged for a closer look

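The 7 contrasts below had opposite signs in the groups compared. None of these differences was tested, since there was 1 library per diet. As log2 ratios of list sums, smooth muscle and pericyte genes in Cxcl9-positive over Cxcl9-zero cells were at -0.36 in ND and 0.53 in HFD, and cardiomyocyte genes at -1.21 and 0.87, where 46 of the 69 HFD UMIs came from 1 cell.

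For HFD over ND, chemokines were at 0.40 in Cxcl9-positive and -0.56 in Cxcl9-zero cells, a sum that holds Cxcl12 and, in ND Cxcl9-zero cells, 766 CPM of Ccl21a. Venous endothelial genes were at 0.18 and -0.18. T cell genes were at 1.76 and -0.80, with 29 of the 42 UMIs of HFD Cxcl9-positive cells in 1 cell. Fibroblast genes were at -1.53 and 0.090, and cardiomyocyte genes at 0.88 and -1.20.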

How the results depend on the processing

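Of 14 alternatives, 2 chosen after seeing the data (leaving out cells with lymphatic or club cell RNA, or with haemoglobin RNA), 156 values were computed, of which 106 stayed within the counting interval or within 1.5 times the main count, 50 moved and 0 reversed. Only the log2 ratios could reverse, since shares and gene counts were graded only as unmoved or moved. All 60 values of named lists and genes kept the main direction. The main values were 37.3% and 14.997% for the shares in ND and HFD, 0.44 and 0.55 for the GTPase ratio over Cxcl9-zero cells, 12 genes higher in both libraries, and -1.04, 324 higher and 917 lower for HFD over ND.

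With at least 2 Cxcl9 UMIs the shares were 23.1% and 4.98%, the HFD GTPase ratio 0.79, the genes higher in both 27 and the diet ratio -0.84. Thinning to 1000 UMIs first gave 19.4% and 5.64%, 0.94, 4 genes, -0.68, 36 higher and 70 lower. At most 20% mitochondrial UMIs gave 17.8% in HFD and an ND GTPase ratio of 0.59. Without the highest doublet scores the ND share was 39.4%. Without cells holding RNA of other types it was 41.3%, the HFD GTPase ratio 0.44, the genes higher in both 5 and the diet ratio -1.15. Requiring Gpihbp1 gave an ND GTPase ratio of 0.36. The mean of per-cell CPM gave 0.33 and 6 genes. Scaling without mitochondrial, haemoglobin and ribosomal protein genes gave 0.37, 7 genes and -0.93, and the median of ratios 7 genes, -0.91 and 492 higher. A limit of 30 UMIs gave 38 genes, 611 higher and 1805 lower, and no limit 500, 2246 and 5442, as more genes entered. For the other moves the cause was not tested.

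No paired analysis was possible because each diet had 1 library. Variation between mice was not measured, and below 100 UMIs, as for Cxcl10 in HFD, intervals were wide.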

Other observations

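Barcodes above the 30% mitochondrial limit were not among the kept cells. By the same counts otherwise, 443 ND and 2667 HFD such barcodes passed the capillary gate, with medians of 1695 and 2400 UMIs. A Cxcl9 UMI was found in 108 of the ND barcodes, 24.4% (20.5 to 28.7), and in 217 of the HFD ones, 8.14% (7.13 to 9.24). After thinning to 1000 UMIs, which left out 56 ND and 0 HFD barcodes, the shares were 17.1% (13.4 to 21.2) and 3.94% (3.23 to 4.75). The Cxcl9 level was 251 CPM (218 to 288) in ND and 41.1 CPM (36.4 to 46.2) in HFD. The share and the level were thus higher in ND than in HFD in these barcodes as well, at shares below those of the kept cells.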
